A study of Mus musculus with 8 samples.

Results

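Gcg reporter cells from mouse intestinal organoids were compared after 4 days of BMP4 and without BMP4. The cells are enteroendocrine cells, which secrete hormones from single positions within the intestinal lining, sorted alive and one by one for a Gcg reporter (Gcg-Venus by the sample title, genotype Gcg reporter, strain C57BL/6 by the labels). The cells compared are those of the 2 Gcg plates in the untreated wells (columns 1 to 6) and the 4 day BMP4 wells (columns 13 to 24) with at least 2000 transcripts outside spike-ins and mitochondrial genes. They number 258 of the 1006 cells kept in the series: 64 untreated and 95 treated cells on plate 1, and 75 untreated and 24 treated cells on plate 2. The wells between (columns 7 to 12) received BMP4 for 24 h and gave 153 kept cells, whose levels stand beside the others. The BMP4 dose, the age of the mice and whether the plates came from separate cultures are not given in the labels. A p-value therefore measures the spread between plates only, and the main fit also takes spread from plates of a Tac1 reporter line. Every condition occupies its own column block on each plate, so condition and block cannot be told apart.

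BMP4 binds pairs of type I and type II serine/threonine kinase receptors, which phosphorylate receptor Smads. These enter the nucleus with Smad4 and switch on target genes, among them the Id genes and the inhibitory Smads that limit the signal. In the intestine BMP signalling is low in the crypt, where BMP antagonists are made, and high along the villus. Gcg encodes proglucagon, the precursor of GLP-1, and marks L cells, which can also make the peptides encoded by Pyy, Nts, Cck and Sct.

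Promoter sequence is shown for 2 BMP target genes and for the hormone gene Sct, because these 3 genes rose together in the treated cells. Each run is the 250 bases before the RefSeq start site, read 5′ to 3′ on the gene's strand in GRCm38.p6, with matches to GGCGCC or GGAGCC on either strand in capitals (GGCTCC is the second motif on the other strand). Both are GC-rich motifs of the kind that BMP-activated Smads bind. The windows are chr12:25096093-25096342 on the minus strand for Id2, chr4:136143572-136143821 on the plus strand for Id3, and chr7:141279134-141279383 on the minus strand for Sct.
Id2: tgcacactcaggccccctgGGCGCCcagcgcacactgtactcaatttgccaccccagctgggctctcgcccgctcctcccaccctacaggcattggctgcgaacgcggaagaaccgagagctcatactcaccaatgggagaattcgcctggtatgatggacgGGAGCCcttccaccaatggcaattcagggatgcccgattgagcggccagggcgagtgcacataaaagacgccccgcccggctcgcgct
Id3: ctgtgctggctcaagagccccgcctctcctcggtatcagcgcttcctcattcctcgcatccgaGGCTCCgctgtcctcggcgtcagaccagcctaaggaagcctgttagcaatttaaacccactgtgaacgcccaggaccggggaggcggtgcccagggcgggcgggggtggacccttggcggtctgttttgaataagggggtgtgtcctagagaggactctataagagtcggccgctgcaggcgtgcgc
Sct: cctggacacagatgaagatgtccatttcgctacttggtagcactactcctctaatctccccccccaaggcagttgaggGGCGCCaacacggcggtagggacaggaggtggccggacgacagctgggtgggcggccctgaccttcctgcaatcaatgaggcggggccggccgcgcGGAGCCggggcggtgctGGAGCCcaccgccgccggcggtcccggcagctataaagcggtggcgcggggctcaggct
The Id2 window holds 1 GGCGCC, with its first base at -231 from the start site, and 1 GGAGCC at -88. That of Id3 holds no GGCGCC and 1 GGAGCC match, at -187. That of Sct holds 1 GGCGCC at -172 and 2 GGAGCC, at -76 and -59. Such matches are common: GGCGCC occurs in 9.59% and GGAGCC in 26.0% of the 32841 upstream windows of this length. The same window of Gcg holds neither, and 44.8% of its bases are G or C, against 62.8% for Id2 and Id3 and 68.0% for Sct. Whether these motifs have a part in any change was not tested. A match is a run of letters and not a measured binding site.

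Fewer wells gave a usable cell after treatment. On plate 1, 66.7% of untreated and 49.5% of 4 day wells passed 2000 transcripts, and on plate 2 the shares were 78.1% and 12.5%. The kept cells held medians of 9334 and 9898 transcripts on plate 1 (31.9 and 29.6 per spike-in transcript) and 6804 and 5587 on plate 2 (29.4 and 16.2). Summed per plate and condition, they gave 172235 to 1251853 transcripts, the smallest sum being that of the treated cells of plate 2. The cells carried the gene they were sorted for: at least 5 Gcg transcripts, after thinning each cell to 2000, were found in 71.9% and 94.7% of untreated cells on plates 1 and 2. Other cell types were present: by clustering without hormones and BMP targets, the share of enterocyte-like or goblet-like cells was 20.3% without BMP4 and 29.5% with it on plate 1, and 12.0% and 12.5% on plate 2. The summed level of 15 enterocyte markers went from 31881 to 39094 CPM (transcripts per 1000000 of the sum) on plate 1 and from 24599 to 12551 on plate 2, and that of 9 goblet markers from 12744 to 24488 and from 2717 to 15874. On plate 2 a single cell gave 72.6% of the untreated and 82.0% of the treated sum of the goblet marker Zg16 (152 and 651 CPM without it). For the goblet marker Tff3 these shares were 31.3% and 57.1% (640 and 3319 CPM without it). Results were therefore also computed without the enterocyte-like and goblet-like cells, which left 51 and 67 cells on plate 1 and 66 and 21 on plate 2. The part of cell loss in the changes that follow was not tested.

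Over the sums of all kept cells, 23 of 8308 genes tested changed at 4 days by edgeR's quasi-likelihood test (Benjamini-Hochberg adjusted p under 0.05): 16 rose (0.193% of genes) and 7 fell (0.0843%), 0.277% in all. An unadjusted p under 0.05 was reached by 575 genes, and DESeq2 called 44. The test shares its estimate of spread with the plates of the Tac1 reporter line, and many calls rested on them. The plate of the Gip reporter line has 1 sum per condition and adds no residual degree of freedom. The fit has 3 with it and 3 without it. It enters the filter and the normalisation. Without Tac1 plate 1 only Id1, Id2, Id3, Sstr1, Nt5e and Fam101a remained called, and without Tac1 plate 2 these 6 with Clca1 and Tbx3, the calls lost having adjusted p from 0.0503 to 0.166. Without the Gip plate 17 of the 23 remained (adjusted p of the others 0.0507 to 0.0641). Leaving out a Gcg plate leaves that line 1 sum per condition and the fit 1 residual degree of freedom, which comes from the Tac1 plates. Calls in such fits cannot show agreement between the Gcg plates, so their log2 changes are given. The counts of alternatives below include these fits. Avpr1b was tested in neither of them. Each called gene that could be refitted kept its direction in each fit that left out 1 plate. With the 2 Gcg plates alone 8 genes were called, all of them among the 23.

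Without the enterocyte-like and goblet-like cells, 320 of 8019 genes passed: 217 rose (2.71%) and 103 fell (1.28%), 3.99% in all. They included 21 of the 23, the exceptions being Clca1, which could not be tested there, and Ptger4. Of the 320, 312 had the same sign with all cells kept. In these cells 309 of the 311 that could be refitted without Gcg plate 1 kept their direction, and 311 of 312 without Gcg plate 2. These genes were picked by the fit of both plates. The removal was chosen after the data were seen and enlarges a count that was small with all cells, so the value with all cells stands beside each gene that passed only without them. A lower adjusted p there need not mean a clearer change. For Smad6, Skil and Scn3a (below) the log2 change was smaller there and its SE about the same, with 3 residual degrees of freedom in both fits. What lowered the adjusted p was not tested.

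The proglucagon gene Gcg fell and the secretin gene Sct rose. Gcg stood at 42919 CPM in untreated cells of plate 1, 39075 at 24 h and 2120 at 4 days. On plate 2 it stood at 77634, 31627 and 4350 CPM. At 4 days Gcg was thus 20.3-fold lower than untreated on plate 1 and 17.9-fold lower on plate 2. The log2 change was -4.09 ± 0.52 (SE of the fit, adjusted p = 0.0229), and -4.21 ± 0.35 without the enterocyte-like and goblet-like cells (adjusted p = 3.23e-10). With all cells 7 of 21 alternatives ended the call: leaving out Tac1 plate 1 (adjusted p = 0.106) or Tac1 plate 2 (0.0959), dropping the plate block (0.162), the 2 Gcg plates alone, the Gcg and Gip plates alone, cells of at least 4000 transcripts and 4 day wells of columns 19 to 24. The log2 change was -3.99 without Gcg plate 1 and -4.19 without Gcg plate 2, each from 1 Gcg plate. Sct, whose peptide drives bicarbonate secretion from the pancreas, stood at 1519 CPM in untreated cells of plate 1, 16848 at 24 h and 15867 at 4 days. On plate 2 its levels were 2053, 13555 and 32251 CPM. Sct was 10.4-fold and 15.7-fold higher at 4 days, with each 24 h sum also above the untreated sum of its plate. Its log2 change was 3.86 ± 0.46 (adjusted p = 0.0117), and 4.02 ± 0.32 without the enterocyte-like and goblet-like cells (adjusted p = 8.34e-11). With all cells its call ended in 5 of 21 alternatives: without Tac1 plate 1 or 2 (adjusted p = 0.092 and 0.0851), with the 2 Gcg plates or the Gcg and Gip plates alone, and with cells of at least 4000 transcripts.

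**Figure D1:**
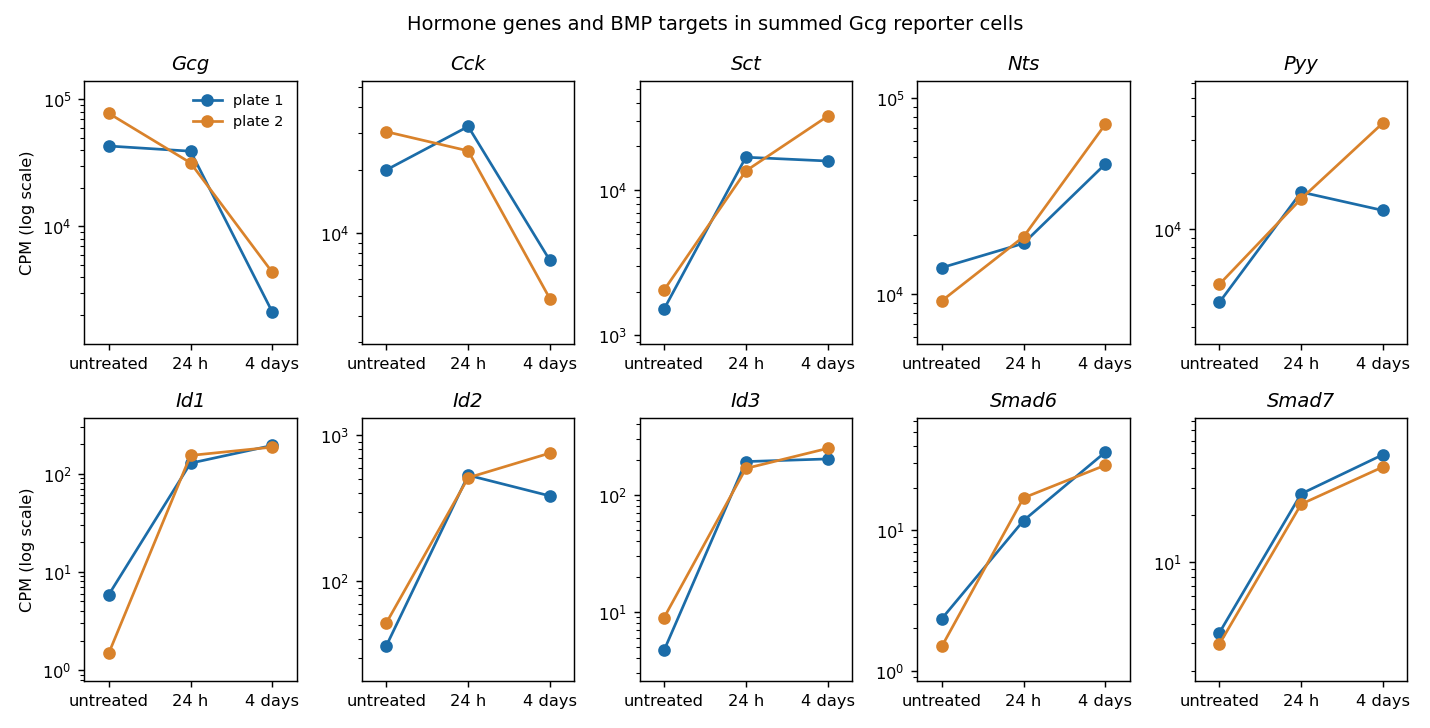
Levels in CPM (log axis) of 5 hormone genes and 5 BMP targets in the summed kept cells of Gcg plate 1 (blue) and plate 2 (orange), untreated, after 24 h and after 4 days of BMP4; each point is 1 sum. Gcg ends at 2120 and 4350 CPM, below the untreated sum of each plate, and Sct ends at 15867 and 32251 CPM, above it.

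Among the other hormone genes, Nts and Pyy had higher values in treated cells on both plates, and Cck and Gip lower ones, but none of these passed with all cells kept. Nts encodes neurotensin, a regulator of gut motility. Its levels were 13566 CPM untreated, 18039 at 24 h and 45782 at 4 days on plate 1, and 9186, 19482 and 72963 on plate 2. Pyy, the precursor of the satiety peptide PYY, stood at 4062, 15748 and 12571 CPM on plate 1 and at 5072, 14507 and 36845 on plate 2. For both genes the treated sums lay above the untreated ones on each plate. A single cell gave 57.1% of the untreated Nts sum of plate 1, which stood at 6121 CPM without it. The log2 change of Nts was 2.50 ± 0.50 (adjusted p = 0.147) with all cells and 2.64 ± 0.36 (9.73e-06) without the enterocyte-like and goblet-like cells. That of Pyy was 2.46 ± 0.47 (adjusted p = 0.103) and 2.57 ± 0.31 (6.98e-07).

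Cck, which encodes cholecystokinin, the trigger of gall bladder contraction, stood at 20039, 32301 and 7394 CPM on plate 1 and at 30487, 24700 and 4849 on plate 2. Gip, the incretin hormone of K cells, stood at 13759, 24225 and 2143 CPM on plate 1 and at 4396, 11713 and 1556 on plate 2. Both genes were lower at 4 days than without BMP4 on each plate, while at 24 h 3 of these 4 values were higher than untreated. A single cell gave 38.9% and 44.0% of the untreated Gip sums, which stood at 8650 and 2542 CPM without it. In the treated Gip sums a single cell gave 67.5% and 64.4%, with 710 and 574 CPM without it. Without the enterocyte-like and goblet-like cells Cck fell by 1.72 ± 0.34 on the log2 scale (adjusted p = 0.00119) and Gip by 1.91 ± 0.38 (0.00157), against -1.91 ± 0.46 (0.267) and -1.96 ± 0.52 (0.33) with all cells.

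In those cells 3 of the 12 hormone genes tested rose (Sct, Nts, Pyy) and 6 fell (Gcg, Cck, Gip, Ghrl, Iapp, Sst). Of all genes 2.71% rose and 1.28% fell there. The median log2 change was -1.81 over the list and 0.0013 over all genes. With all cells kept 1 rose and 1 fell, against 0.193% and 0.0843% of all genes, with a median of -1.76 against -0.0045. Without the enterocyte-like and goblet-like cells, Gcg changed by -4.16 without Gcg plate 1 and by -4.29 without Gcg plate 2. In the same order the log2 changes were 4.21 and 3.81 for Sct, 3.22 and 2.16 for Nts, and 3.09 and 2.03 for Pyy. They were -2.51 and -1.075 for Cck, -1.32 and -2.38 for Gip, and -3.28 and -2.915 for Iapp. For Ghrl they were -0.061 and -4.41, and for Sst -2.68 and -0.020, so these 2 falls rested on 1 plate each. Ghrl, the ghrelin gene, stood at 1912 CPM untreated and 80.7 at 4 days on plate 1 but at 1122 and 941 on plate 2, and 77.7% of the last sum came from 1 cell, without which it stood at 213 CPM. In the untreated Ghrl sums a single cell gave 37.0% and 37.7%, with 1266 and 723 CPM without it. The somatostatin gene Sst went from 44.5 to 38.4 CPM on plate 1 and from 2827 to 511 on plate 2, where 1 cell gave 64.8% of the untreated sum (1005 CPM without it). Iapp, the amylin gene, had 1 count in untreated cells of plate 1 and 90 on plate 2, 73.1% of the 90 from 1 cell, against 0 and 2 counts at 4 days, where a count of 0 allows up to 2.4 CPM. Ucn3, Tac1 and Cartpt passed in neither set of cells.

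The Id genes were among the strongest rises. They encode helix-loop-helix proteins without a DNA-binding domain, which hold other transcription factors of that class in inactive pairs. Id1 stood at 5.86 CPM in untreated cells of plate 1, 128 at 24 h and 193 at 4 days, and at 1.49, 153 and 186 CPM on plate 2, where the untreated value is 1 count (Poisson 95% interval 0.0376 to 8.28 CPM). Id2 stood at 36.3, 532 and 384 CPM on plate 1 and at 52.0, 512 and 755 on plate 2. Id3 stood at 4.69, 193 and 203 CPM on plate 1 and at 8.92, 168 and 250 on plate 2. For all 3 genes every 24 h and 4 day sum lay above the untreated sum of its plate. The log2 changes were 5.68 ± 0.56 for Id1 (adjusted p = 0.0039), 3.78 ± 0.35 for Id2 (0.0039) and 5.19 ± 0.40 for Id3 (0.00186). Id2, with the promoter shown above, was called in all 21 alternative analyses run, and Id1 and Id3 in 20 of 21 each.

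The inhibitory Smads had higher values after treatment but did not pass with all cells. Smad6, which blocks BMP receptors, was at 2.34 CPM untreated, 11.7 at 24 h and 36.0 at 4 days on plate 1, and at 1.49, 17.0 and 29.0 on plate 2. Smad7 was at 3.51, 27.3 and 48.7 CPM on plate 1 and at 2.97, 23.5 and 40.7 on plate 2. Untreated values are 1 to 3 counts. Their log2 changes were 4.13 ± 0.72 (adjusted p = 0.0726) and 3.85 ± 0.65 (0.0769) with all cells. Without the enterocyte-like and goblet-like cells they were 3.98 ± 0.78 (0.00108) and 4.45 ± 0.88 (0.00128). The SE was no smaller there for either gene, so the lower adjusted p does not mark a more precise change. In the latter set the log2 change of Smad6 was 4.27 without Gcg plate 1 and 3.495 without Gcg plate 2. That of Smad7 was 7.21 and 3.495, each from 1 Gcg plate. Of the 8 BMP target genes tested, 3 rose with all cells (median log2 change 3.82), against 0.193% of all genes. Without the enterocyte-like and goblet-like cells 6 rose (median 3.98), against 2.71% of all genes. These were the 3 Id genes, Smad6, Smad7 and Skil, a repressor of Smad-driven transcription. Skil changed by 1.99 ± 0.54 there (adjusted p = 0.0279), against 2.07 ± 0.53 (0.295) with all cells. Bambi, a decoy receptor, and Tgif1, a Smad corepressor, had log2 changes of -1.60 ± 0.62 and 0.19 ± 0.47 with all cells and did not pass in either set. Of 9 BMP receptor and Smad genes tested none passed in either set, with medians of 0.21 and 0.27.

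Several of the other genes that rose encode surface and signalling proteins. Sstr1, a somatostatin receptor, stood at 4.69 CPM untreated, 52.1 at 24 h and 108 at 4 days on plate 1, and at 8.92, 48.5 and 209 on plate 2, 23.0-fold and 23.4-fold higher at 4 days. Nt5e, the ecto-enzyme CD73 that makes adenosine from AMP and a marker of the villus tip, stood at 9.37, 118 and 139 CPM on plate 1 and at 17.8, 106 and 221 on plate 2. The log2 changes of Sstr1 and Nt5e were 4.60 ± 0.44 (adjusted p = 0.0039) and 3.85 ± 0.39 (0.00417). Tbx3, a T-box repressor, went from 38.7 to 240 CPM on plate 1 and from 25.3 to 296 on plate 2 (3.17 ± 0.42, adjusted p = 0.0217). Mxd1, a partner of Max that opposes Myc, went from 16.4 to 338 CPM and from 11.9 to 92.9 (4.05 ± 0.65, adjusted p = 0.0472). Without the enterocyte-like and goblet-like cells its change was smaller, 2.99 ± 0.65, with treated sums at 37.2 and 54.8 CPM.

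Pcsk1n, which encodes proSAAS, an inhibitor of prohormone convertase 1/3, stood at 42.2 CPM untreated, 276 at 24 h and 524 at 4 days on plate 1, and at 117, 203 and 668 on plate 2. On both plates the treated sums lay above the untreated, 12.4-fold and 5.69-fold, with a log2 change of 3.13 ± 0.43 (adjusted p = 0.0229). Prss30, a serine protease gene, went from 146 to 530 CPM and from 181 to 726 (2.07 ± 0.30, adjusted p = 0.0452). S100a6, a calcium-binding protein gene, went from 208 to 708 CPM and from 72.8 to 778 (2.72 ± 0.43, adjusted p = 0.0472). S100a6 is also among the leading genes of the goblet-like cluster. Without the enterocyte-like and goblet-like cells it stood at 28.2 and 251 CPM on plate 1 and at 29.1 and 212 on plate 2, a log2 change of 3.21 ± 0.32.

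Clca1, a secreted goblet cell protein, is among the genes that named the goblet-like cluster, so leaving out that cluster had to lower it. It stood at 25.8 CPM untreated and 1616 at 4 days on plate 1 and at 0 (a floor of 4.46 CPM) and 854 on plate 2, with a log2 change of 6.92 ± 0.71 (adjusted p = 0.00849; 1.0 by DESeq2, with a log2 change of 8.23 ± 5.43). A single cell gave 38.7% of the treated sum of plate 1 and 78.1% of that of plate 2, which stood at 1026 and 194 CPM without it. The share of goblet-like cells was 6.25% untreated and 8.42% treated on plate 1, and 4% and 8.33% on plate 2. Without the enterocyte-like and goblet-like cells the untreated sums were at 18.8 and 0 CPM and the treated sums at 41.9 and 13.7, and the gene could not be tested. Ptger4, the prostaglandin EP4 receptor gene, had 32.0 and 63.9 CPM in treated cells with all cells kept, 72.7% of the latter from 1 cell, but 0 and 6.85 without those cells (log2 change 0.12 ± 1.92, adjusted p = 0.991). The other called rises are Fam101a (4.60 ± 0.51), Gsdma (4.17 ± 0.56, with 80.0% of the treated sum of plate 2 from 1 cell) and the heat shock co-chaperone gene Dnaja4 (3.70 ± 0.46). Gsdma and Ptger4 fall outside the rule for naming genes and were chosen after their values were seen.

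The 7 genes that fell with all cells kept were Gcg, Spink4, Avpr1b, Hpd, Nkx2-2, Fap and Acly. Spink4, a protease inhibitor gene of secretory cells, went from 406 to 28.8 CPM on plate 1 and from 290 to 40.7 on plate 2 (-3.39 ± 0.48, adjusted p = 0.026). It is also in the goblet marker list. Of the 7 goblet markers tested with all cells, Spink4 fell and Clca1 rose, against 0.0843% and 0.193% of all genes. Avpr1b, a vasopressin receptor gene, went from 112 to 9.59 CPM and from 109 to 11.6 (-3.28 ± 0.52, adjusted p = 0.0472). In both cases the 24 h sums, at 217 and 83.3 CPM for Spink4 and 79.4 and 79.3 for Avpr1b, lay between. Sstr1 and Avpr1b were the 2 of 13 receptor genes tested that passed, in either set of cells. Of all genes 0.277% passed with all cells and 3.99% without the enterocyte-like and goblet-like cells. Nkx2-2, a homeodomain factor of enteroendocrine differentiation, went from 119 to 30.4 CPM and from 177 to 23.2 (-2.19 ± 0.36, adjusted p = 0.0472). Hpd, an enzyme gene of tyrosine breakdown, went from 90.2 to 11.2 CPM and from 80.3 to 11.6 (-2.77 ± 0.44). On plate 2 the treated values of Avpr1b and Hpd came from 2 cells each and lay below the floor of 3 counts. That of Nkx2-2 came from 3 cells. Acly, which encodes the enzyme that supplies acetyl-CoA for lipid synthesis, went from 662 to 194 CPM and from 1036 to 215 (-1.88 ± 0.31).

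Fap, a prolyl peptidase gene, lies beside Gcg in the genome (mm10, GENCODE M21: Gcg chr2:62474530-62483650, Fap chr2:62500943-62574075, both on the minus strand) and fell with it. It stood at 823 CPM untreated, 590 at 24 h and 202 at 4 days on plate 1, and at 1155, 698 and 197 on plate 2, a log2 change of -2.11 ± 0.30 (adjusted p = 0.0452). Its fall of 4.07-fold and 5.85-fold was smaller on each plate than that of Gcg. The annotation places antisense genes over Nkx2-2 (Nkx2-2os), Tbx3 (Tbx3os1) and Pcsk1n (Eras), and because the use of strand in counting is not given in the sources used here, reads of these pairs cannot be told apart.

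**Figure D2:**
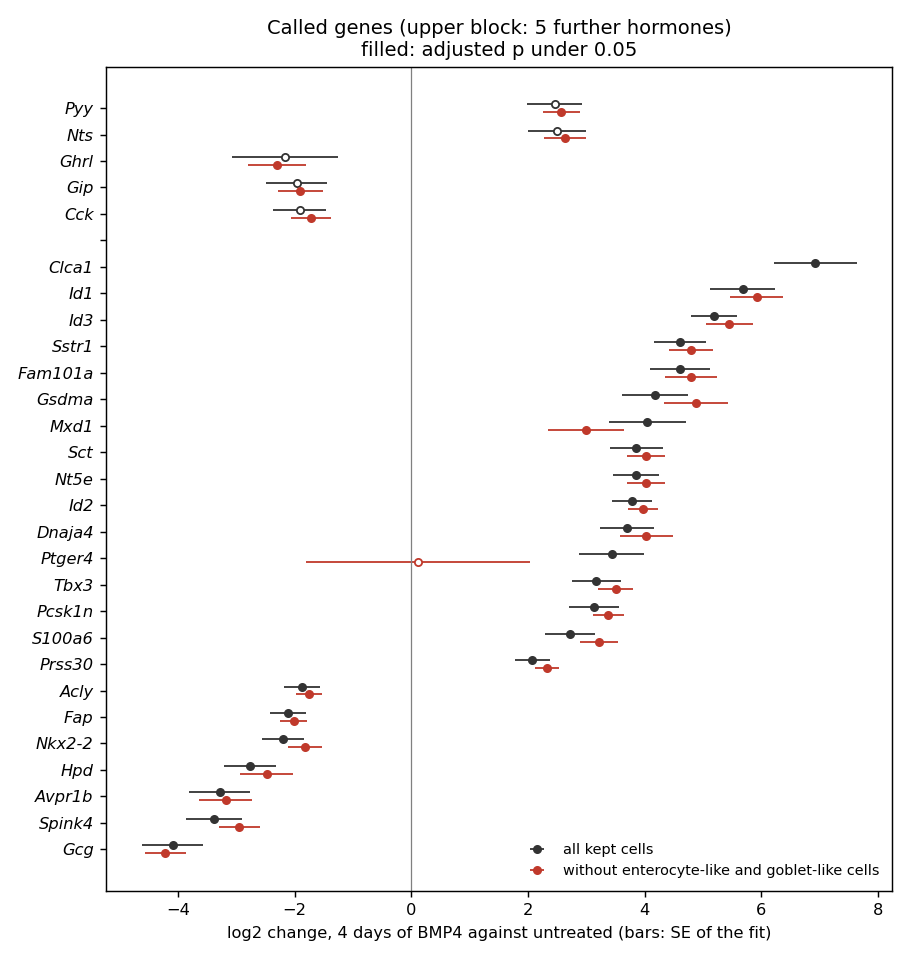
Log2 change after 4 days of BMP4 with the SE of the fit for the 23 called genes and 5 further hormone genes (upper block), with all kept cells (black) and without enterocyte-like and goblet-like cells (red); filled points have an adjusted p under 0.05. Ptger4 moves from 3.44 to 0.12, Clca1 has no red point, and the 5 hormone genes are filled only in red.

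Further genes passed by role without the enterocyte-like and goblet-like cells. Of 25 secretory granule and exocytosis genes tested, 6 rose, among them Pcsk1n, Resp18, Syt7 and Pcsk1, and 1 fell (Syt13), against 2.71% and 1.28% of all genes, with a median log2 change of 0.33; with all cells only Pcsk1n was called. Resp18, a granule protein gene, went from 235 to 574 CPM on plate 1 and from 185 to 589 on plate 2 (1.61 ± 0.23, adjusted p = 1.5e-05, against 1.47 ± 0.40 and 0.332 with all cells). Syt7, a calcium sensor of exocytosis, went from 398 to 1039 CPM and from 349 to 965 (1.59 ± 0.25, adjusted p = 5.42e-05, against 1.47 ± 0.51 and 0.599). Pcsk1, the convertase that cuts proglucagon to GLP-1, had a smaller change of 0.82 ± 0.24 (adjusted p = 0.0461, against 0.54 ± 0.32 and 0.825), and Syt13 stood at -0.88 ± 0.22 and -1.10 ± 0.33. Of 23 enteroendocrine transcription factor genes, Neurod1 (0.83 ± 0.22) and Sox4 (1.16 ± 0.27) rose and Nkx2-2 (-1.82 ± 0.30) and Fev (-0.92 ± 0.24) fell, 2 in each direction. These counts stand against the same 2.71% and 1.28% of all genes, and the list had a median of -0.40. With all cells Nkx2-2 was called, and the others had log2 changes of 0.66 ± 0.35 (Neurod1), 1.08 ± 0.34 (Sox4) and -0.97 ± 0.36 (Fev) with adjusted p of 0.767, 0.487 and 0.644. Pcsk1 and Fev were named after their values were seen. Without the enterocyte-like and goblet-like cells, the change of Pcsk1 was 0.38 without Gcg plate 1 and 1.10 without Gcg plate 2. That of Syt13 was -1.32 and -0.615.

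Part of the villus tip and crypt lists also passed in these cells, where 2.71% of all genes rose and 1.28% fell. Of 5 villus tip genes tested, Nt5e, Tbx3 and Klf4 rose (median over the list 2.69), Klf4, a factor of post-mitotic epithelium, from 31.9 to 112 CPM and from 15.4 to 178 (2.69 ± 0.43, adjusted p = 7.95e-05, against 2.03 ± 0.68 and 0.556 with all cells). Of 6 crypt genes, Smoc2, Cd44 and Prom1 fell (median -0.73), by 3.07 ± 0.79, 2.67 ± 0.49 and 1.61 ± 0.41 on the log2 scale, against -1.77 ± 0.71, 0.10 ± 0.52 and -0.49 ± 0.52 with all cells (adjusted p = 0.679, 1.0 and 0.94). Cd44 went from 109 to 12.4 CPM on plate 1 and from 88.9 to 34.2 on plate 2. With all cells kept it stood at 69.1 and 71.9 CPM and at 77.3 and 81.3, so its change depended on which cells were summed. Without the enterocyte-like and goblet-like cells, Klf4 changed by 3.69 without Gcg plate 1 and by 1.91 without Gcg plate 2. In the same order the log2 changes were -1.19 and -2.99 for Cd44, -1.41 and -1.76 for Prom1, and -6.90 and -2.83 for Smoc2. With all cells 2 of 5 villus tip genes and none of 5 crypt genes passed, at medians of 2.03 and -0.02, against 0.277% of all genes. None of the 3 proliferation genes tested passed in either set.

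The largest further rises without those cells were Gpr133, an adhesion receptor gene (128 to 848 CPM on plate 1 and 121 to 965 on plate 2, 2.99 ± 0.25), and the linker histone gene H1fx (16.9 to 72.9 and 12.0 to 151 CPM, 2.99 ± 0.46). The largest further falls by the same rule were Scin, an actin-severing protein gene (319 to 23.3 and 286 to 47.9 CPM, -3.25 ± 0.34), Gfra3, a receptor for the neurotrophic factor artemin (425 to 52.7 and 369 to 68.5 CPM, -2.73 ± 0.33), Nupr1, a stress-induced gene (-2.73 ± 0.58), Nipal1 (-2.58 ± 0.43), Eif4ebp1, a repressor of cap-dependent translation (-2.34 ± 0.55), and Il17re, a receptor for interleukin-17C (-2.08 ± 0.40). Of these 8, Gpr133 changed by 3.17 without Gcg plate 1 and by 2.84 without Gcg plate 2, and Gfra3 by -2.24 and -2.89. The changes of H1fx (3.80 and 2.20) and Scin (-2.38 and -3.65) were further apart. With all cells none of the 8 passed. The log2 changes there were 2.76 ± 0.48 for Gpr133, 2.80 ± 0.54 for H1fx, -2.81 ± 0.64 for Gfra3 and -2.24 ± 0.54 for Il17re. They were smaller for Scin (-1.72 ± 0.37), Nupr1 (-1.51 ± 0.66) and Eif4ebp1 (-1.16 ± 0.49). Nipal1 stood at -0.21 ± 0.36 with all cells, and its sign turned to 0.076 without Gcg plate 2, so its fall depended on which cells were summed. The ion channel genes Kcnk3, a potassium leak channel (1.66 ± 0.32), and Scn3a, a sodium channel (-1.50 ± 0.31), were the 2 of 10 excitability genes that passed, against 3.99% of all genes, and stood at 1.32 ± 0.37 and -1.80 ± 0.33 with all cells (adjusted p = 0.419 and 0.0784). Ddc, which makes serotonin from its precursor, fell by 1.29 ± 0.25 and was the only 1 of 7 serotonin genes that passed (-0.86 ± 0.30 and 0.61 with all cells). Of 12 genes of the unfolded protein response Herpud1 alone passed (-1.35 ± 0.31, and -0.79 ± 0.31 with all cells), and the list had a median of -0.68. These counts stand against the same 3.99% of all genes. The summed level of 4 nuclear RNAs went from 27647 to 31335 CPM on plate 1 and from 15570 to 43459 on plate 2, with Kcnq1ot1 at 1.44 ± 0.35 (adjusted p = 0.0101, and 0.703 with all cells). Kcnq1ot1 is among the leading genes of a cluster of 93 cells with a median of 3665 transcripts, and without that cluster as well its adjusted p was 0.525. This cluster reached the marker count for tuft cells, but on plate 2 it held 4 of 24 treated cells while 5 of 6 tuft markers were at 0 in that sum (5.81 CPM in all), so it is left unnamed. On plate 1 it held 12.5% of untreated and 14.7% of treated cells, with tuft markers at 16.4 and 233 CPM, and its part in the other changes was not tested.

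In single cells thinned to 2000 transcripts, fewer treated cells held the Gcg transcript and each held less of it. Of the cells, 71.9% untreated (Wilson 95% interval 59.9 to 81.4) and 34.7% treated (25.9 to 44.7) held at least 5 Gcg transcripts on plate 1, and 94.7% (87.1 to 97.9) and 87.5% (69.0 to 95.7) on plate 2. The intervals separate on plate 1 and overlap on plate 2. Among the cells holding Gcg, the median number of its transcripts went from 120 to 9 on plate 1 and from 140 to 11 on plate 2, so the number per cell was lower on both. Without thinning, the share with at least 5 Gcg transcripts was 98.4% and 96.8% on plate 1 and 100% and 100% on plate 2. As a reference for such shares, enterocyte-like and goblet-like cells of these plates held Gcg in 10 of 22 untreated and 6 of 31 treated cells (45.5% and 19.4%), against 91.5% and 54.5% of the other cells, at median depths of 10185 and 18215 against 8093 and 6731 transcripts. Their summed Gcg was 1210 and 1084 CPM, against 79089 and 3434 CPM in the other cells. Whether these are free RNA or transcripts of the sorted cells was not tested.

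Sct and Nts were held by more treated cells. Sct was held by 32.8% of untreated and 60.0% of treated cells on plate 1 and by 32.0% and 75.0% on plate 2, with no overlap of the intervals (22.6 to 45.0 against 49.9 to 69.3, and 22.5 to 43.2 against 55.1 to 88.0). The median among holders went from 7 to 60 and from 8.5 to 53 transcripts. Nts was held by 28.1% and 60.0% on plate 1 and by 25.3% and 87.5% on plate 2, with medians among holders of 58 and 160, and of 8 and 192. Pyy was held by 32.8% and 46.3%, and by 38.7% and 58.3%, with overlapping intervals on both plates. Cck was held by 67.2% and 47.4%, and by 85.3% and 75.0%. Enterocyte-like and goblet-like cells rarely held these transcripts when treated: Sct in 1, Nts in 4, Pyy in 1 and Cck in 3 of 31 cells, against 84.1%, 84.1%, 64.8% and 68.2% of the other treated cells. With 2 plates an exact sign-flip test cannot go below p = 0.5, so the shares carry no test.

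**Figure D3:**
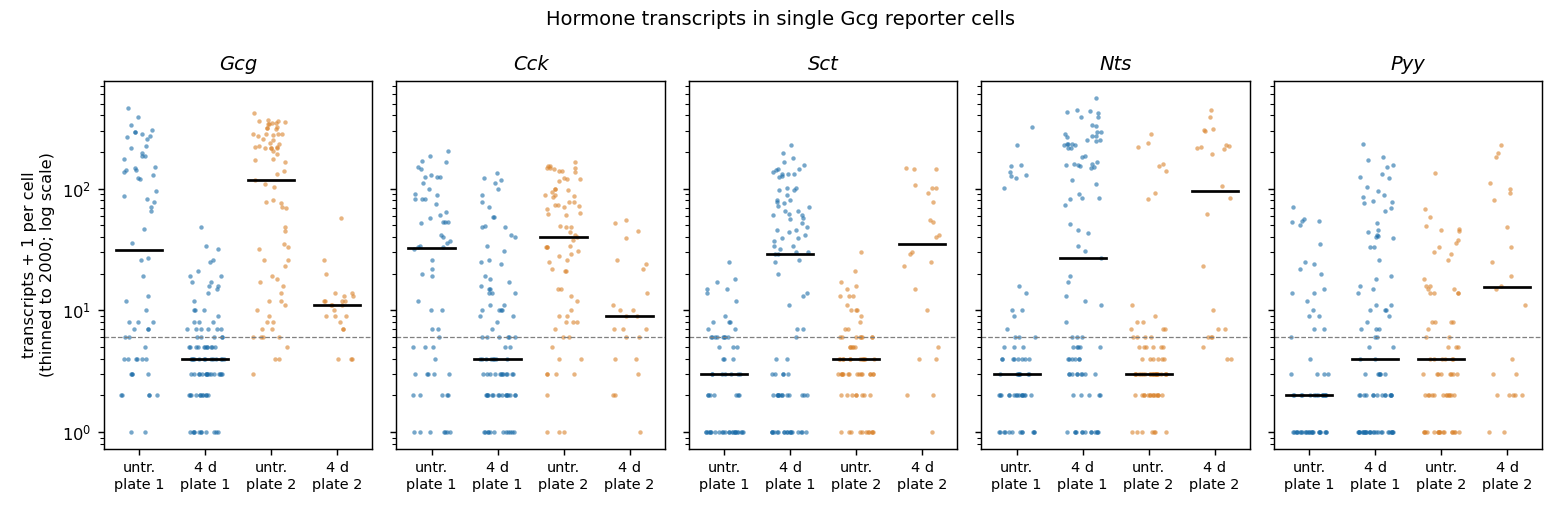
Transcripts plus 1 per cell (log axis, each cell thinned to 2000 transcripts) of 5 hormone genes in untreated and 4 day cells of Gcg plates 1 (blue) and 2 (orange); black bars are medians over all kept cells and the dashed line marks 5 transcripts. Treated cells sit lower for Gcg and Cck and higher for Sct, Nts and Pyy, with Sct held by 60.0% and 75.0% of them.

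The most abundant hormone transcript of a cell shifted from Gcg to Nts. Transcripts were counted by their ends, so the counts do not scale with gene length. Gcg led in 50% of untreated and 5.26% of treated cells on plate 1 and in 70.7% and 16.7% on plate 2. Nts led in 18.8% and 43.2%, and in 9.33% and 45.8%, and Sct in 1.56% and 12.6%, and in 0% and 8.33%. On both plates the order of Gcg and Nts was thus opposite in untreated and treated cells. The share with no hormone at 5 transcripts went from 15.6% to 28.4% on plate 1 and from 5.33% to 4.17% on plate 2. Hormones made up a mean of 10.1% and 10.3% of transcripts per cell on plate 1 and 12.8% and 13.7% on plate 2, so the mean share taken by hormones was nearly the same on each plate. At least 4 hormones were held by 32.8% and 41.1% of cells, and by 32.0% and 79.2%.

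**Figure D4:**
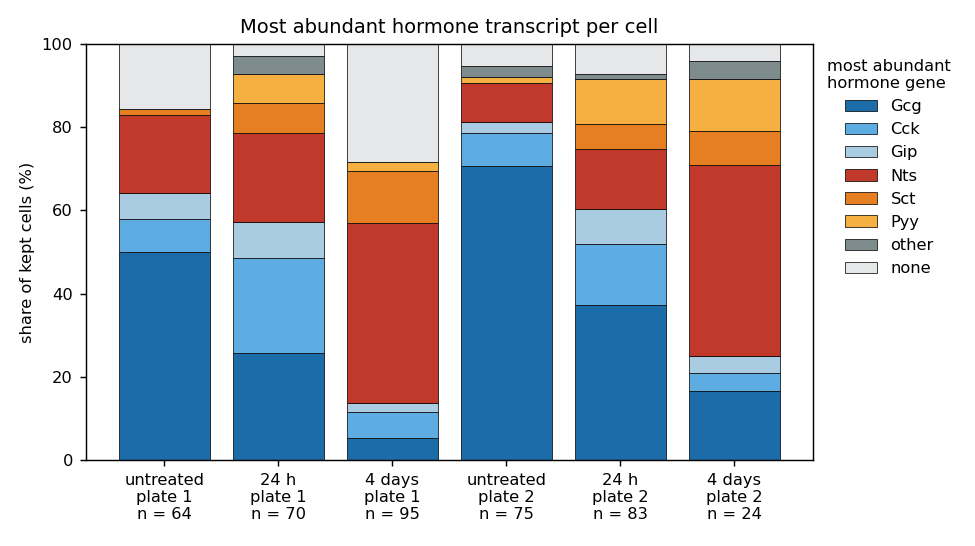
Share of kept cells (%) by their most abundant hormone gene, for untreated, 24 h and 4 day cells of Gcg plates 1 and 2; n is the number of cells and none means under 5 transcripts of every hormone gene. Gcg leads in 50% and 70.7% of untreated cells and Nts in 43.2% and 45.8% of 4 day cells.

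The hormone genes were held together in the same cells. Among cells holding Pyy, 9 of 21 untreated and 43 of 44 treated cells also held Sct on plate 1 (42.9% and 97.7%), and 11 of 29 and 14 of 14 on plate 2 (37.9% and 100%). Among cells holding Nts, Sct was found in 50% and 87.7%, and in 36.8% and 85.7%. Of treated cells lacking Pyy, 27.5% and 40.0% held Sct, and of those lacking Nts, 18.4% and 0% (0 of 3 cells). The cells lacking these hormones include most enterocyte-like and goblet-like cells, which were 28 of 95 treated cells on plate 1. When treated, such cells held Pyy in 1 and Nts in 4 of 31, so this contrast also separates cell types. It was not computed without them. Cells holding Sct also held Gcg in 90.5% and 47.4% on plate 1, and in 100% and 88.9% on plate 2. Among cells holding Gcg, Nts was found in 32.6% of untreated and 81.8% of treated cells on plate 1, and in 26.8% and 90.5% on plate 2. These are descriptions of cells from 2 plates and carry no test.

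The 4 day changes were set against those of the Tac1 reporter line (Tac1-Cre by the titles, also C57BL/6 organoids), whose plates hold separate untreated cells. Untreated and 4 day wells of these plates gave 141 kept cells, of which 68 on plate 1 and 16 on plate 2 were untreated. With all cells, no gene's change differed between the lines by edgeR's test (0 of 8308, 0.0%), with 753 genes at an unadjusted p under 0.05 and 22 called by DESeq2. With the enterocyte-like and goblet-like cells left out, 140 genes passed (1.75%). The change was higher in the Gcg line for 69 (0.86%) and lower for 71 (0.885%). For Sct the log2 changes were 3.86 and 3.55, a difference of 0.30 ± 0.59 (adjusted p = 0.932). For Gcg, at 358 and 0 CPM in the untreated Tac1 sums, the difference was -0.89 ± 1.00 (0.856). A single cell gave 95.15% of the 358 CPM, and 1 of 68 cells of that sum held Gcg. The Tac1 cells thus give little basis for a Gcg change to compare. The differences for Id1, Id2 and Id3 were 0.14 ± 0.67, -1.04 ± 0.53 and 0.45 ± 0.56. Nts had no count in any Tac1 sum, so its change could not be compared.

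Genes that differed in direction between the lines, without the enterocyte-like and goblet-like cells, included Gal3st2, a sulfotransferase gene, with a log2 change of 2.42 in the Gcg line and -2.12 in the Tac1 line (difference 4.54 ± 0.47, adjusted p = 3.21e-07). Ccrn4l, a circadian phosphatase gene, had 1.94 and -2.16 (4.10 ± 0.77, adjusted p = 0.00201). Th, the rate-limiting enzyme of dopamine synthesis, had 2.34 and -1.58 (3.91 ± 0.90, adjusted p = 0.0127; 3.70 ± 0.95 and 0.385 with all cells, where the sign turned to -3.66 without Tac1 plate 1), at 43.9 and 75.5 CPM in the treated Gcg sums and 9.85 and 9.51 CPM in the treated Tac1 sums with all cells. With all cells, Th was found in 1 untreated and 6 treated Gcg reporter cells on plate 1, and in 3 and 4 on plate 2. A single cell gave 54.6% and 53.9% of the treated Gcg sums of Th, which stood at 20.5 and 36.5 CPM without it. The Th values of the treated Tac1 sums are a few counts. Hpgd (4.03 ± 1.04), Sepn1 (9.31 ± 1.73) and Gpr56 (7.29 ± 1.95) also had higher changes in the Gcg line, the last 2 with no count in treated Tac1 cells, which makes their size depend on the fit. Lower in the Gcg line were the changes of the peptide transporter gene Slc15a1 (-0.45 against 4.24, difference -4.69 ± 0.58), the amino acid transporter gene Slc43a2 (-4.03 ± 0.78), Scin (-9.39 ± 1.66, with no count in untreated Tac1 cells), Serpina1e (-5.10 ± 1.21), and the enterocyte genes Apoa1 (-4.18 ± 0.68) and Cyp3a11 (-3.96 ± 0.88). Enterocyte genes chose the cells left out of this comparison, so the last 2 describe what remained after that choice. With all cells the adjusted p of these 12 differences lay between 0.200 and 0.630.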

How the data were processed

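Single cells were processed by SORT-seq with spike-in RNA, per the labels' protocols. The submitters' processing notes name BWA 0.6.2-r126 and the build mm10. Which counting tool, annotation and strand setting were used is not given in the sources used here. Deposited values are expected counts: transcript numbers that the authors corrected for molecular identifiers used more than once. Undoing that correction for 4096 identifiers gave whole numbers within 0.01 for 100% of values, whereas the labels state identifiers of 4 bases. The 16115 genes listed for both kinds of deposited file were used. Gene symbols are those of the files, coordinates are GENCODE M21 and promoters RefSeq.

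Of 3072 wells the 1006 with at least 2000 transcripts were kept. No doublet caller was run, since each well received 1 sorted cell. Expected counts were summed per plate and condition (at least 10 cells; 14 sums, 6 of the Gcg line) and rounded. The analysis used edgeR 4.0.16 in R 4.3.3: filterByExpr by condition, TMM, then the quasi-likelihood F test, with plate as a block and condition within line, leaving 3 residual degrees of freedom. DESeq2 1.42.0 was an alternative. The plates pair the conditions by design; residuals of untreated and 4 day sums of a plate correlated at 0.281 in the Gcg and 0.102 in the Tac1 line. Intervals (Wilson for shares, exact Poisson for counts, both 95%) and the floor of 3 counts cover counting error only. Leiden clusters (leidenalg 0.10.2 through scanpy 1.11.5) used 20 components of 1500 variable genes, with hormones and BMP targets left out, 15 neighbours and a resolution of 1.0. A name needed at least 3 listed markers among the top 20 genes; the enterocyte-like and goblet-like names are rebuilt and not the authors'.

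Genes named are the 12 largest rises and falls among calls whose mean log2 CPM reached 5 with the same sign on both plates, in either set of cells (predicted, Rik and ribosomal protein genes left out), every hormone and BMP target tested, up to 4 per other list by smallest p, and the 6 largest differences each way from the Tac1 line. The cells compared, the gene lists and the tests were chosen with earlier results of these data known. The results of 2 genes are not reported here.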

Additional observations from a re-analysis of the deposited data

How the results depend on the processing

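The count of genes called at 4 days (23) was 44 with DESeq2, 160 without a filter on low counts, 7 with cells of at least 4000 transcripts and 7 with cells holding more endocrine than other markers, a rule that kept few cells and left plate 1 without an untreated sum. It was 8 with only the 2 Gcg plates, 11 with the Gcg and Gip plates and every gene, and 12 or 15 with 4 day wells of columns 13 to 18 or 19 to 24. Without the block that pairs conditions by plate it was 43. Chosen after seeing the data were the removal of enterocyte-like and goblet-like cells (320), of the unnamed cluster holding Kcnq1ot1 as well (239), and each removal of 1 plate from the former. Leaving out 1 plate gave 6 to 482 over both sets of cells. The count that differed from the Tac1 line (0) was 22 with DESeq2, 113 without the filter, 3 without the block, 140 and 160 with the cells removed, and 0 to 148 leaving out 1 plate. Shares are 4 day minus untreated, in percentage points over both plates. For Gcg (-22.2) the difference was -0.798 without thinning. For Sct (35.1) it was 15.8 at 4000 transcripts, 13.6 without thinning, 13.8 and 52.4 at 1 and 10 transcripts, and 47.2 with more endocrine markers. For Nts (47.0) it was 17.8 without thinning and 7.20 at 1 transcript. For Pyy (16.6) it was 21.0 at 1000 transcripts, 11.3 without thinning, 11.7 at 1 transcript, 23.4 with more endocrine markers and 22.9 without enterocyte-like and goblet-like cells. For Cck (-15.1) it was -30.4 at 1000 transcripts, -0.280 without thinning, -0.930 and -31.3 at 1 and 10 transcripts, -44.8 with more endocrine markers, and -5.54 and -25.4 by columns. Leaving out 1 Gcg plate gave -37.1 to -7.17 for Gcg, 27.2 to 43.0 for Sct, 31.9 to 62.2 for Nts, 13.5 to 19.7 for Pyy, -19.8 to -10.3 for Cck and -65.6 to -17.2 for kept wells. Some log2 changes turned sign. With more endocrine than other markers these were Cd44 (-0.23), Ghrl (0.25), Gip (1.82), Prom1 (0.033), Skil (-0.059), Sox4 (-0.23), Tgif1 (-5.91) and Th against the Tac1 line (-5.59). With cells thinned they were Cd44 (-0.026) and Gcg against the Tac1 line (0.90). By columns they were Cd44 (-0.27), Nipal1 (0.19) and Prom1 (0.014). Leaving out either Gcg plate gave Nipal1 -0.69 to 0.076, Prom1 -1.06 to 0.22, Tgif1 -0.56 to 0.44 and Sct against the Tac1 line -0.0037 to 0.60, and either Tac1 plate gave Th against that line -3.66 to 4.37. With cells removed they were Cd44 (-2.67 and -3.73), Tgif1 (-0.61 and -0.70) and Ptger4 (-2.76 also without that cluster). The cause was not tested. Depth limits genes at 1 to 3 counts in a sum, such as Smad6 and Smad7 in untreated cells and Avpr1b and Hpd in treated cells of plate 2.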
